A study of Sus scrofa with 45 samples.

Results

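The oligoadenylate synthetase family was measured here through OAS1, OAS2 and OASL in blood of male miniature pigs. A probe counted as a member where its gene name, its RefSeq record or its description named 1 of these genes. That rule found 3 genes with 7 probes among the 2175 gene symbols and 43603 probes of the array, 3 probes each for OAS1 and OAS2 and 1 for OASL. No probe named an oligoadenylate synthetase without saying which.

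The study fed specific pathogen free Clawn miniature pigs, 12 weeks old at the start and housed singly, a control diet, a diet rich in fat and cholesterol (HFCD) or the latter with sucrose added (HFCSD). RNA of whole blood was measured after feeding periods of 10, 19 and 27 weeks, and RNA of white blood cells after 27 weeks, on 45 Agilent arrays read in 1 colour. Of the 12 groups of sample type, feeding period and diet, 9 held 4 arrays, and 3 groups of whole blood held 3 each, namely HFCSD at 19 weeks and both diets at 27 weeks. Whole blood was collected with a PAXgene kit and white blood cells with a LeukoLOCK kit, so that sample type, kit and scan day cannot be told apart, and neither can feeding period and scan day. The methods name 5 pigs for each diet, fewer than its arrays, so arrays of a diet share pigs. The labels do not say which, so each p measures only the spread between arrays, and comparisons between feeding periods or sample types treat as independent arrays that share pigs. HFCD and HFCSD were set against the same control arrays. On each array 15494 to 23344 spots were well above background, 35.4 to 53.3% of the probe spots, and the number of arrays limits the precision. Levels are given as quantile normalized log2 intensity, and a change as a difference of means on that scale. Levels of different probes were compared only to choose the brightest probe of a gene for its most similar genes.

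Oligoadenylate synthetases are antiviral enzymes whose genes are switched on by interferon. OAS1 and OAS2 bind double-stranded RNA and make short adenylate chains with an unusual linkage (2-5A), messengers that set off the breakdown of viral and cellular RNA. OASL is a relative that does not make these chains, carries a ubiquitin-like domain and is known to enhance signalling by the RNA sensor RIG-I. White blood cells, monocytes among them, express the family strongly when interferon is present.

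In the Sscrofa11.1 gene list OAS2 and OAS1 were neighbours with 0 genes between them, and 36 protein-coding genes lay between OAS1 and OASL on the same chromosome. The OAS1 probe with the widest range of levels, A_72_P223657, was designed on the RefSeq transcript of OAS1 from base 871, and its 60 bases are shown because the values of OAS1 turn on it.
A_72_P223657: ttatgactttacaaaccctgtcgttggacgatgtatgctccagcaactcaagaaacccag
The second OAS1 probe, A_72_P293394, carried the gene name of OAS1 alone and was designed on a cDNA clone. It shared a run of 22 bases with the unnamed probe A_72_P431129. The last OAS1 probe, A_72_P428594, was named by its description.

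For OAS2, A_72_P303179 and A_72_P108986 were designed on the RefSeq transcript from bases 3327 and 2210, and A_72_P025136 was named by its description. A_72_P303179 and A_72_P025136 were identical at 55 of 59 aligned bases, so they are not separate measurements of the gene. The window of 30 bases in which they differed most is shown because it holds 3 of the 4 differences, in capitals, within bases 27 to 56 of the first probe and 26 to 55 of the second.
A_72_P025136: tggtatcctctataataaaaGgtgattgCG
A_72_P303179: tggtatcctctataataaaaTgtgattgTA
The arrays cannot tell which transcripts these probes bound. The OASL probe, A_72_P177731, was designed on the RefSeq transcript from base 1259.

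Of the 7 probes, 6 entered tests, each being well above background throughout 1 or more of the compared groups. The remaining probe, A_72_P428594 of OAS1, was well above background on 20 of 45 arrays and entered no test. In whole blood of the HFCD group at 19 weeks none of its 4 arrays was well above background, which bounds its level there at 4.18.

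OAS1 levels differed widely between arrays of 1 group. On A_72_P223657 the control arrays of whole blood read 9.93, 8.44, 9.49 and 9.23 after 10 weeks, 10.64, 8.59, 10.75 and 7.37 after 19 weeks, and 10.93, 8.92, 9.73 and 6.92 after 27 weeks. The HFCD arrays read 6.99, 8.71, 6.54 and 10.51 after 10 weeks, 6.11, 10.45, 6.77 and 10.49 after 19 weeks, and 9.78, 5.18 and 10.84 after 27 weeks. The HFCSD arrays read 9.77, 6.10, 9.33 and 9.20 after 10 weeks, 11.08, 6.37 and 9.83 after 19 weeks, and 10.14, 10.68 and 10.35 after 27 weeks. In most of these groups some arrays lay near the top of the range and others near its foot, while the HFCSD arrays at 27 weeks lay close together, and every diet group overlapped its control group.

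In white blood cells OAS1 on A_72_P223657 read 12.81, 10.01, 10.89 and 9.02 in control arrays, 10.88, 8.13, 7.57 and 12.22 in HFCD arrays, and 11.01, 7.30, 12.15 and 11.92 in HFCSD arrays. High and low arrays again stood in the same group, and the 3 groups overlapped. Over the 45 arrays the level ran from 5.18 to 12.81, a 198-fold range. Its SD within groups was 1.91 on the log2 scale, larger than that of 99.9% of the 16085 probes well above background on at least 36 arrays, whose median SD was 0.41 and 95th percentile 0.97. The highest intensity exceeded the lowest 50.6-fold among the HFCD arrays of whole blood at 27 weeks and 1.45-fold among the HFCSD arrays of the same time.

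By mean level of this OAS1 probe the order ran from control white blood cells at 10.68 (1.61) (mean (SD)), through HFCSD white blood cells at 10.60 (2.25) and HFCSD whole blood at 27 weeks at 10.39 (0.27), to HFCD whole blood at 10 weeks at 8.19 (1.81). The means spanned 2.50, and no neighbours in that order differed by more than the SD within groups.

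The second OAS1 probe gave another picture. A_72_P293394 ran from 11.11 to 13.12, a 4.02-fold range, with an SD of 0.38 within groups, larger than that of 42.5% of the probes. Its highest reading, 13.12, was on a control array of white blood cells whose group otherwise read 11.49, 11.11 and 11.53. The correlation of A_72_P223657 with this probe over 45 arrays, after subtracting the mean of each sample type and feeding period, was r = 0.22 (rho 0.14), whereas that with the dim probe A_72_P428594 was r = 0.86 (rho 0.82). Without the 2 arrays on which A_72_P223657 was farthest from its median they were 0.24 and 0.84. A_72_P428594 was well above background on 20 of 45 arrays, so its correlation rests largely on readings not well above background. With that limit 2 of the 3 OAS1 probes varied together and 1 did not, and which transcripts each bound was not tested.

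**Figure D1:**
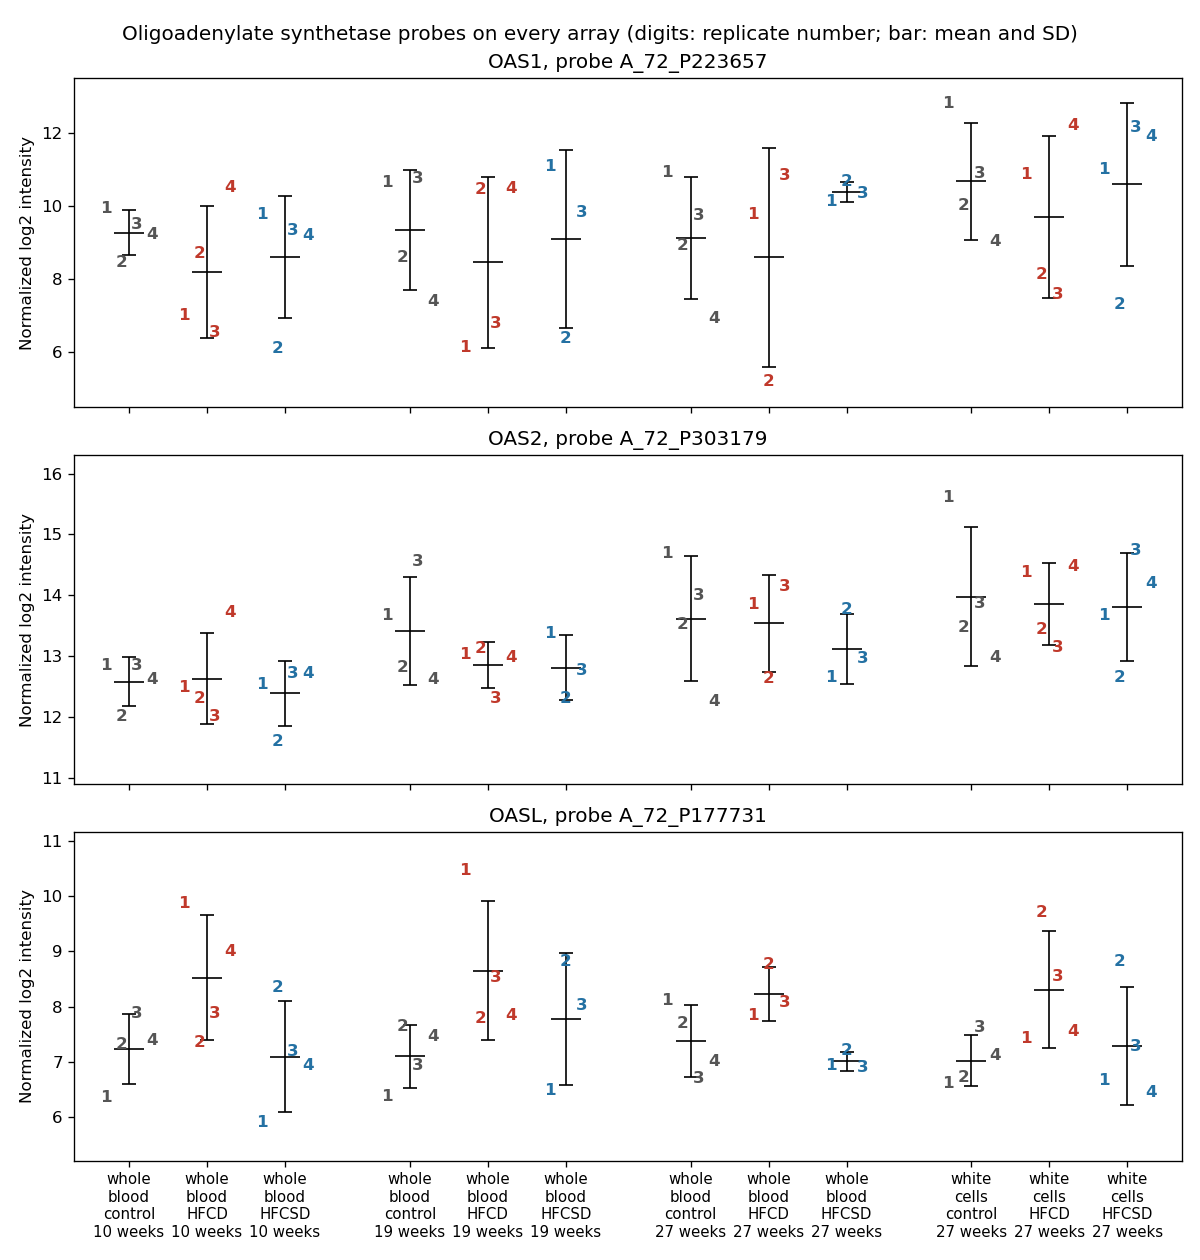
Normalized log2 intensity (vertical axes) of OAS1, OAS2 and OASL probes on each of the 45 arrays, by sample type, diet and feeding period (horizontal axis), with digits for replicate numbers, a dash for the mean and bars for the SD. OAS1 ran from 5.18 to 12.81 with high and low arrays inside most groups, and the 4 HFCD arrays of OASL at 19 weeks lay above the 4 control arrays.

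OAS2 on A_72_P303179 was well above background on every array. The control arrays of whole blood read 12.85, 12, 12.84 and 12.62 after 10 weeks, 13.67, 12.81, 14.56 and 12.62 after 19 weeks, and 14.69, 13.52, 14 and 12.25 after 27 weeks. The HFCD arrays read 12.48, 12.30, 12.01 and 13.71 after 10 weeks, 13.02, 13.12, 12.30 and 12.98 after 19 weeks, and 13.84, 12.63 and 14.14 after 27 weeks. The HFCSD arrays read 12.54, 11.60, 12.72 and 12.71 after 10 weeks, 13.37, 12.30 and 12.76 after 19 weeks, and 12.64, 13.76 and 12.96 after 27 weeks. Both diet groups overlapped control at each time, and the highest arrays of whole blood were control arrays of the later feeding periods.

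In white blood cells this OAS2 probe read 15.60, 13.47, 13.86 and 12.97 in control arrays, 14.38, 13.43, 13.14 and 14.47 in HFCD arrays, and 13.67, 12.64, 14.73 and 14.19 in HFCSD arrays. The groups overlapped, with 1 control array above the rest. Group means ran from 12.39 (0.53) in HFCSD whole blood at 10 weeks to 13.97 (1.14) in control white blood cells, a span of 1.58, with an SD of 0.76 within groups, and neighbours in the order did not differ beyond it. The near twin probe A_72_P025136 followed it array by array (r = 0.99, rho 0.99), over a 15.8-fold range.

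The remaining OAS2 probe, A_72_P108986, ran from 2.01 to 9.54 and was well above background on 43 of 45 arrays. Its lowest readings were 2.01 on an HFCD array of white blood cells and 3.84 on a control array of whole blood at 27 weeks, the 2 arrays on which it was not well above background. With A_72_P303179 it had r = 0.59 (rho 0.79), or 0.76 after leaving out the 2 arrays on which A_72_P108986 lay farthest from its median. The 3 OAS2 probes thus varied together, and A_72_P108986 was the most widely spread, with an SD of 1.30 within groups.

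OASL gave higher mean values under HFCD than under control in all 4 sets of arrays. The sets share pigs, so these are not 4 separate results. In whole blood at 10 weeks OASL read 6.35, 7.31, 7.88 and 7.38 in control arrays, 9.87, 7.35, 7.88 and 9.0 in HFCD arrays, and 5.91, 8.35, 7.18 and 6.94 in HFCSD arrays. At 19 weeks it read 6.37, 7.64, 6.94 and 7.46 in control arrays, 10.46, 7.78, 8.53 and 7.84 in HFCD arrays, and 6.48, 8.82 and 8.02 in HFCSD arrays. At 10 weeks 2 of the HFCD arrays lay within the control range or at its upper edge, and at 19 weeks each HFCD array lay above each control array, by little for 2 of them.

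At 27 weeks OASL in whole blood read 8.12, 7.69, 6.69 and 7.01 in control arrays, 7.84, 8.77 and 8.07 in HFCD arrays, and 6.93, 7.21 and 6.90 in HFCSD arrays. In white blood cells it read 6.61, 6.72, 7.63 and 7.11 in control arrays, 7.43, 9.70, 8.55 and 7.55 in HFCD arrays, and 6.66, 8.81, 7.27 and 6.44 in HFCSD arrays. HFCD overlapped control in both sample types, with its highest array above all control arrays, and in whole blood the HFCSD arrays lay below the HFCD arrays. The OASL group means ran from 7.01 (0.17) in HFCSD whole blood at 27 weeks to 8.65 (1.25) in HFCD whole blood at 19 weeks, a span of 1.64 beside an SD of 0.88 within groups. The 4 HFCD groups held the top 4 places in that order, neighbours again differing by less than the SD.

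Each diet was then compared with control within a sample type and feeding period. With limma, at an adjusted p under 0.05 over all probes tested, 0 of the 48 tests of member probes were called, 4 had an unadjusted p under 0.05, and the changes ran from -1.49 to 1.55. In 1 of the 48, OASL under HFCD at 19 weeks, the groups did not overlap, as for 7.47% of all probes in that comparison, where limma called 0.0181%. The test named in the study's methods gave 0 members at an unadjusted p under 0.05 and 0 after adjustment, and the exact permutation test gave 1 unadjusted. Of all probes tested against control, limma called 0.0281% for HFCD and 0.0123% for HFCSD in whole blood after 10 weeks, 0.0181% and 0.0175% after 19 weeks, 0.0165% and 10.6% after 27 weeks, and 0.0276% and 0.0366% in white blood cells. A count of 0 members lay near these shares, and 0 of 6 is too few to set against the 10.6% under HFCSD at 27 weeks, where 1824 of 17133 probes were called.

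The 4 unadjusted results were all of OASL under HFCD. Its change was 1.30 in whole blood at 10 weeks (95% interval 0.02 to 2.57, adjusted p = 0.495 with limma), against 10.0% of all probes at an unadjusted p under 0.05. At 19 weeks it was 1.55 (0.16 to 2.93, adjusted p = 0.354 with limma), against 12.5% of all probes. At 27 weeks it was 0.85 (0.06 to 1.64, adjusted p = 0.895 with limma), against 5.54%. In white blood cells it was 1.29 (0.06 to 2.53, adjusted p = 0.997 with limma), against 4.72%. None passed the adjustment, and none of the 4 changes turned sign in any alternative run. Leaving out 1 HFCD array brought OASL from 1.30 to 0.85 at 10 weeks (replicate 1), from 1.55 to 0.95 at 19 weeks (replicate 1), from 0.85 to 0.58 at 27 weeks (replicate 2) and from 1.29 to 0.83 in white blood cells (replicate 2), so part of each value rested on 1 array.

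Two-sided exact permutation tests of OASL under HFCD gave p = 0.143 at 10 weeks, 0.0286 at 19 weeks, 0.171 at 27 weeks and, in white blood cells, 0.0857. The smallest exact p the design allows is 0.0286 for 4 arrays against 4 and 0.0571 for 3 against 4. At 19 weeks only 1 control array shared the scan day of the diet arrays. That control array read 6.37 for OASL, below each of the 4 HFCD arrays, and with scan day as a block the change was 2.28 rather than 1.55. A lone control array on that day gives no spread of its own.

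Under HFCSD the change of OASL against control was -0.14 and 0.67 at 10 and 19 weeks, -0.37 at 27 weeks in whole blood and 0.28 in white blood cells, with adjusted p from limma of 0.480 to 1.00. The signs at 10 weeks and in white blood cells turned when 1 array was left out, to 0.26 and -0.22, and the other OASL values became 0.15 and -0.12. Over all probes tested the median change under HFCSD at 27 weeks in whole blood was -0.21, and -0.13 with another background correction (normexp). Without the filter on dim probes it was -0.04. Values of that comparison thus stand beside a shift among the probes that passed the filter rather than of the whole array.

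For OAS1 on A_72_P223657 the change under HFCD was -1.08 (95% interval -3.04 to 0.87) at 10 weeks, -0.88 (-3.68 to 1.91) at 19 weeks, -0.52 (-3.23 to 2.19) at 27 weeks and -0.98 (-3.71 to 1.75) in white blood cells. Adjusted p from limma was 0.659, 0.828, 0.998 and 0.997. The interval at each time held a fall of several-fold and a rise, so a change of OAS1 could not be told from the spread between arrays. Leaving out 1 array moved these OAS1 changes to -0.53, -0.10, 1.19 and -0.27, and with scan day as a block the 19 week change was -2.19. Under HFCSD the OAS1 changes were -0.67, -0.24, 1.26 and -0.09 in the same order, and without 1 array 0.16, 1.12, 0.53 and 1.01. That of 1.26 became 3.77 when the percentage of bright spots on each array (those well above background) entered the fit, and that of -0.09 became 0.03 with the normexp correction.

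For OAS1 on A_72_P293394 the changes against control ran from -0.38 to 0.15 over both diets. In the order of whole blood at 10, 19 and 27 weeks and white blood cells, the HFCD change of OAS2 on A_72_P303179 was 0.05, -0.56, -0.08 and -0.12, and its HFCSD change was -0.18, -0.61, -0.50 and -0.16. Leaving out 1 array moved these OAS2 values to -0.31, -0.18, 0.37 and 0.43, and to 0.08, -0.22, -0.14 and 0.38. Its value of 0.05 became -0.05 with scaling to the 75th percentile, and its value of -0.50 became 0.72 with the percentage of bright spots in the fit. The remaining OAS2 probe, A_72_P108986, had its change farthest from 0, -1.49, under HFCD in white blood cells (adjusted p = 0.997 with limma). Without 1 array, the one reading 2.01, it was 0.11. In whole blood at 27 weeks this probe gave 1.07 under HFCD and 0.81 under HFCSD. These became 0.23 and -0.03 without the control array reading 3.84. Its other changes against control ran from -0.72 to 0.07. The median change over the 6 member probes was 0.06, -0.42, -0.06 and -0.15 under HFCD, beside 0.09, -0.04, -0.03 and 0.02 over all probes, and -0.20, -0.38, -0.38 and -0.09 under HFCSD, beside -0.01, 0.04, -0.21 and 0.01.

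**Figure D2:**
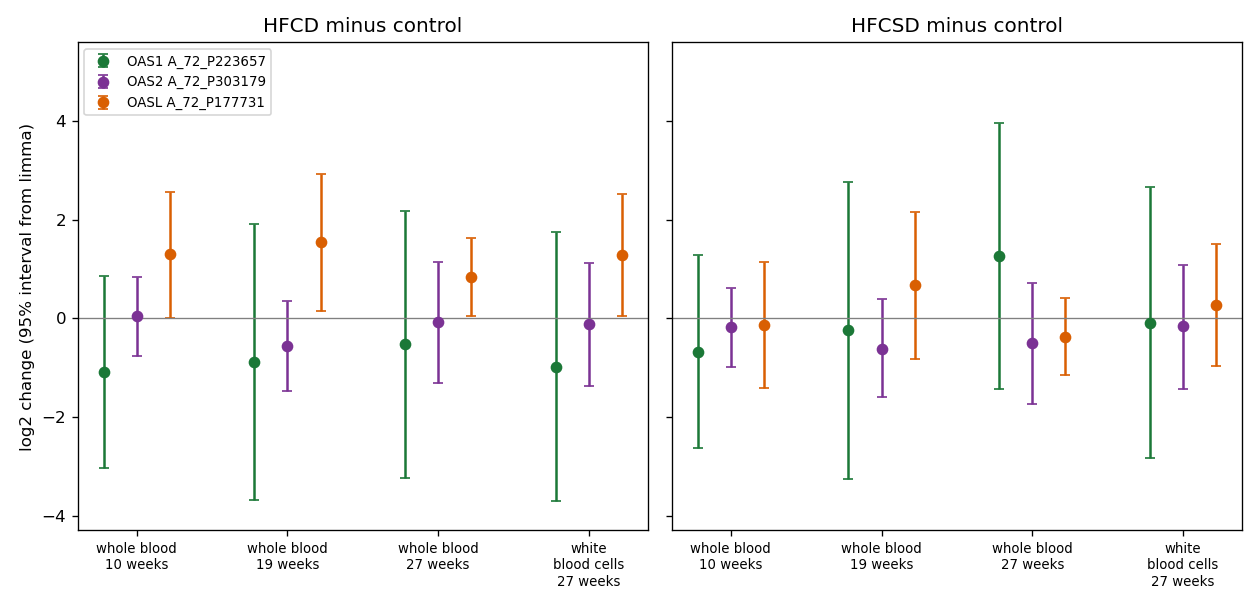
Change against control on the log2 scale (vertical axis) of OAS1, OAS2 and OASL probes under HFCD (left) and HFCSD (right) in each set of arrays (horizontal axis), with 95% intervals from limma. The intervals of OASL under HFCD lay above 0 before adjustment, from 0.02 at their lowest. Under HFCD those of OAS1 on A_72_P223657 were wider than those of OASL.

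The 2 diets differ by sucrose, and HFCSD was set against HFCD directly. None of the 24 member tests was called with limma (0 of 24), 2 had an unadjusted p under 0.05, both of OASL, and the changes ran from -1.43 to 1.79. Limma called 0.00% of all probes at 10 weeks, 0.00% at 19 weeks and 0.0111% at 27 weeks in whole blood, and 0.00% in white blood cells. OASL gave -1.43 at 10 weeks (95% interval -2.71 to -0.15, adjusted p = 0.807 with limma), against 4.95% of all probes at an unadjusted p under 0.05, and -0.88 at 19 weeks. At 27 weeks it gave -1.22 in whole blood (-2.06 to -0.37, adjusted p = 0.393 with limma), against 12.5% of all probes, and -1.01 in white blood cells. In whole blood at 27 weeks no HFCSD array reached an HFCD array for OASL, and the groups of 16.7% of all probes did not overlap there, where limma called 0.0111%. OAS1 on A_72_P223657 gave 0.41, 0.64, 1.79 and 0.89, and its groups overlapped throughout. Leaving out 1 array brought these to -0.14, -0.36, 0.07 and 0.18, and the OASL values to -0.98, -0.23, -0.94 and -0.55. Of the interferon-induced list described below, 0 of 28, 2 of 27 and 4 of 27 probes were above 0 in whole blood, in order of time. Their medians were -0.49, -0.32 and -0.55, beside -0.10, 0.09 and -0.16 over all probes, and some entered through the HFCD arrays alone. Platelet marker medians were 0.93, 1.03 and 0.11, with 4 of 4 at an unadjusted p under 0.05 at 10 weeks. Limma called 0 in both lists.

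Members were next set beside each other over the 45 arrays, each as its deviation from the mean of its sample type and feeding period, so that diet differences remained in the values. These 21 correlations are descriptions, with no test, since arrays share pigs. OAS1 on A_72_P223657 and OAS2 on A_72_P303179 had r = 0.77 (rho 0.78), or 0.74 without the 2 arrays on which OAS1 was farthest from its median. Within the sets r was 0.82, 0.68 and 0.67 in whole blood at 10, 19 and 27 weeks and 0.89 in white blood cells. Arrays high in OAS1 on A_72_P223657 thus tended to be high in OAS2 in each set, and with group means subtracted r was 0.84. The OAS1 probe A_72_P293394 had r = 0.46 (rho 0.24) with the same OAS2 probe. Without the 2 arrays on which A_72_P293394 was farthest from its median r was 0.19. Within the sets it was -0.18, 0.53, 0.40 and 0.68 in the same order, so the OAS1 probes differed in this.

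OASL ran the other way from OAS1. OAS1 on A_72_P223657 and OASL had r = -0.61 (rho -0.51), or -0.56 without those 2 arrays and -0.60 with group means subtracted. Within the sets it was -0.45, -0.79 and -0.34 in whole blood at 10, 19 and 27 weeks and -0.74 in white blood cells. Arrays low in OAS1 tended to be high in OASL also inside a diet group, as in HFCD whole blood at 19 weeks, where the array with the highest OASL, 10.46, had the lowest OAS1, 6.11. Not every group ran this way. In control whole blood at 27 weeks the array with the highest OAS1, 10.93, also had the highest OASL, 8.12. OASL and OAS2 on A_72_P303179 had r = -0.24 (rho -0.27), or -0.16 without the 2 arrays on which OAS2 was farthest. Its sign differed between sets, at 0.06, -0.51 and 0.23 in whole blood at 10, 19 and 27 weeks and -0.50 in white blood cells. The other OAS1 probe, A_72_P293394, had r = -0.12 (rho -0.06) with OASL.

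**Figure D3:**
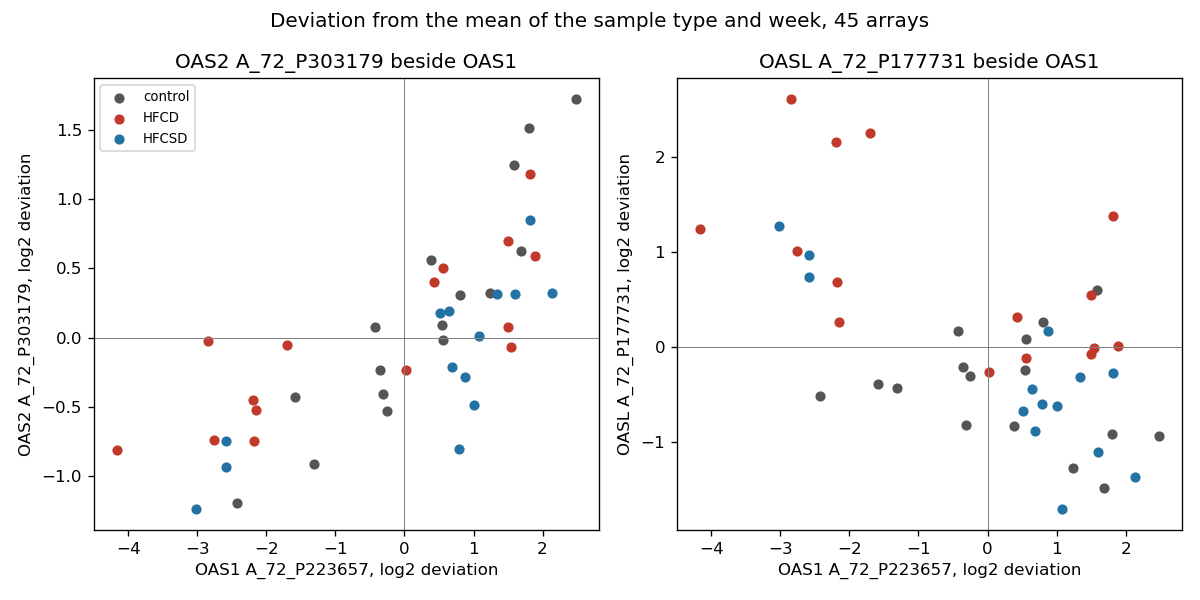
Deviation of OAS2 (left) and OASL (right) against that of OAS1 on A_72_P223657, in log2 intensity from the mean of the sample type and feeding period, with 1 point for each of the 45 arrays, coloured by diet. OAS2 followed OAS1 with r = 0.77 and OASL ran against it with r = -0.61.

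Among 1176 genes with a symbol, the 5 most like OASL over the 45 arrays were CXCL10 (r = 0.74), a chemokine induced by interferon, MX1 (0.71), an antiviral GTPase, USP18 (0.70), which removes ISG15 from proteins, C1R (0.69) and STMN1 (0.69). Among those most like OAS2 on A_72_P303179 were SART3 (0.66), ADGRE5 (0.64), ACSL4 (0.64) and ALOX5AP (0.64). Those most like OAS1 on A_72_P293394 were NLN (0.79), IGFBP1 (0.68), CXCL16 (0.65), ATP5S (0.63) and FADS1 (0.62). For the widely spread OAS1 probe A_72_P223657, added after its values were seen, they were HPS6 (0.54), RETN (0.46), ACSL4 (0.46), ITGB1 (0.44) and IFNAR1 (0.42), while CCL5 ran against it at -0.66. For OAS2 on A_72_P108986, likewise added, they were GPX4 (0.75), TEC (0.65), TAP1 (0.61), ATP6V0E1 (0.57) and MED27 (0.54), where TAP1 is of the interferon-induced list below. The genes most like OASL were thus known interferon targets for the first 3, and 1 such gene stood among the 5 named for A_72_P108986 of OAS2. That gene, TAP1, had r = 0.09 with A_72_P303179 and 0.09 with A_72_P025136, so its likeness was to A_72_P108986 alone among the OAS2 probes. The values for A_72_P108986 include its readings of 2.01 and 3.84, which were not well above background.

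Interferon-induced genes were described as a list, of which 17 of 48 genes had named probes, 31 in number. Over 27 of its probes the median correlation with OASL was 0.50, and 26 were above 0. With OAS1 on A_72_P223657 the median was -0.19, with 3 above 0, and with OAS2 on A_72_P303179 it was 0.06, with 17 above 0. Diet differences remained in all list correlations, so they are not separate from the diet changes below. Genes of interferon signalling, 21 of 32 with 36 named probes and sharing IRF7 among others with the first list, had a median of 0.37 with OASL over 28 probes, and 18 were above 0.

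Under HFCD the interferon-induced probes lay above control together with OASL. In whole blood 28 of 28 tested probes were above 0 at 10 weeks with a median of 1.06, 27 of 28 at 19 weeks with 1.18, and 27 of 27 at 27 weeks with 1.35. In white blood cells 28 of 29 were, with 1.21. Over all probes these medians were 0.09, -0.04, -0.03 and 0.02. Well above background throughout the control group were 23, 25, 21 and 27 of the list's probes, and the other tested probes entered through the HFCD arrays, which favours probes higher there. Without the filter on dim probes 31, 30, 29 and 29 of 31 were above 0, with medians of 1.06, 1.06, 1.27 and 1.15. Limma called 0 of them at an adjusted p under 0.05, while 21, 17, 19 and 18 had an unadjusted p under 0.05, as had 10.0%, 12.5%, 5.54% and 4.72% of all probes. Over the settings run the number called higher went from 0 to 8 at 19 weeks and was 0 at the other times. The 8 came with all 45 arrays in 1 fit, which called 525 of 16613 probes where the fit above called 3, so calls were more numerous over the whole array. Under every setting run the medians stayed above 0, from 0.65 to 1.08 at 10 weeks, 0.65 to 1.41 at 19 weeks, 0.95 to 1.37 at 27 weeks and 0.84 to 1.32 in white blood cells.

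By size of change under HFCD at 19 weeks these interferon-induced genes were led by CXCL10 at 4.09 (adjusted p = 0.116 with limma), RSAD2, which encodes viperin, at 2.68 (0.131), LGALS9 at 2.44 (0.203), MX2 at 2.07 (0.140) and DDX58, which encodes RIG-I, at 1.83 (0.229). At 10 weeks they were CXCL10 at 2.98, LGALS9 at 2.50, RSAD2 at 2.31, MX1 at 1.74 and IFIH1 at 1.61, with adjusted p of 0.235 to 0.373. CXCL10 and RSAD2 were also first in whole blood at 27 weeks, at 3.35 and 2.48, and in white blood cells, at 3.03 and 2.41. The change of 1.55 of OASL at 19 weeks was above the list's median of 1.18 and below its 5 largest.

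Under HFCSD 24 of 26 interferon-induced probes were above 0 at 10 weeks with a median of 0.48, 23 of 26 at 19 weeks with 0.77, 23 of 26 at 27 weeks with 0.64 and, in white blood cells, 27 of 29 with 0.70. Some of these too entered through the diet arrays alone, and without the filter on dim probes 28, 28, 25 and 29 of 31 were above 0, with medians of 0.48, 0.78, 0.57 and 0.70. Limma called 0 at 10 weeks, 0 at 19 weeks and 0 in white blood cells, with 2, 11 and 11 at an unadjusted p under 0.05, as had 1.73%, 11.9% and 11.4% of all probes. With all 45 arrays in 1 fit 2 were called at 19 weeks, beside 326 of all 17177 probes rather than 3. In whole blood at 27 weeks 4 of 26 rose, and 10 had an unadjusted p under 0.05. Among the 4 a probe of IRF7 rose by 2.14 (adjusted p = 0.0310 with limma) and 2 probes of LGALS9 by 2.03 (0.0313) and 1.92 (0.0360). Of all probes limma called 10.6% there, with 6.78% of all probes higher and the others lower, and 32.3% had an unadjusted p under 0.05. In that comparison OASL stood at -0.37. Over the settings run the number called higher went from 0 to 5, and it was 0 without the filter on dim probes and with the percentage of bright spots in the fit.

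Interferon signalling probes under HFCD had medians of 0.29, 0.34 and 0.41 in whole blood at 10, 19 and 27 weeks and 0.18 in white blood cells, where 24 of 30, 22 of 28, 25 of 29 and 21 of 32 were above 0. Limma called 0, and 11, 5, 6 and 7 had an unadjusted p under 0.05, as had 10.0%, 12.5%, 5.54% and 4.72% of all probes. Over all probes the medians under HFCD were 0.09, -0.04, -0.03 and 0.02. Among the largest changes at 27 weeks were those of IRF7 at 1.35, MAVS at 1.01, STAT2 at 0.66 and TLR8 at 0.62, with adjusted p of 0.895 to 0.998. Under HFCSD the medians were 0.12, 0.15, 0.40 and 0.07. At 27 weeks in whole blood 4 of 28 probes rose, beside 10.6% of all probes called, and the same settings also brought that count to 0. Among the 4 a probe of IRF7 rose as above, a probe of IRF9 by 1.23 (adjusted p = 0.0372 with limma) and a probe of MAVS by 2.58 (0.0492). The list holds more probes of these genes than were called. At the other times limma called 0, and 1, 3 and 9 had an unadjusted p under 0.05, as had 1.73%, 11.9% and 11.4% of all probes. Above 0 under HFCSD were 23 of 28, 15 of 28 and 17 of 28 in whole blood and 17 of 33 in white blood cells. Over all probes the medians under HFCSD were -0.01, 0.04, -0.21 and 0.01.

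Of the list of the 2-5A pathway and response to double-stranded RNA, EIF2AK2 was read beside the family. It encodes the kinase PKR, which like OAS1 and OAS2 binds double-stranded RNA and then halts translation. In the order of whole blood at 10, 19 and 27 weeks and white blood cells, the HFCD change of EIF2AK2 was 0.74, 1.02, 0.50 and 0.75, and its HFCSD change was 0.37, 0.72, 0.28 and 0.49. At an unadjusted p under 0.05 stood 2 of these 8 values, those of HFCD at 10 and 19 weeks. Adjusted p from limma was 0.377 to 0.997 under HFCD and 0.551 to 1.00 under HFCSD, and the groups overlapped each time. Over 45 arrays EIF2AK2 had r = 0.59 with OASL, -0.10 with OAS1 on A_72_P223657 and 0.18 with OAS2 on A_72_P303179.

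Markers of blood cell types were read beside these values, and in bulk blood fewer cells of a type and less RNA per cell cannot be told apart. Platelet markers, 3 of 7 genes on 4 probes, had medians of -1.04, -1.56 and -1.27 under HFCD in whole blood at 10, 19 and 27 weeks and -1.11 in white blood cells, with 0 of 4 probes above 0 each time. Limma called 0, and 4, 0, 1 and 0 had an unadjusted p under 0.05, as had 10.0%, 12.5%, 5.54% and 4.72% of all probes. PPBP, a platelet chemokine, had -1.43 at 10 weeks (adjusted p = 0.133 with limma), ITGB3 -0.85 and ITGA2B -0.65. Mean levels over the 4 platelet probes were apart at 10 weeks, 10.96 to 11.42 in control and 9.92 to 10.27 in HFCD arrays, and at 27 weeks in whole blood, 11.18 to 11.72 and 10.05 to 10.61. They overlapped at 19 weeks, 10.59 to 11.12 and 7.77 to 11.33, and in white blood cells, 7.89 to 13.33 and 7.01 to 12.84. Taken singly, 5.39% of all probes did not overlap between HFCD and control at 10 weeks and 6.21% at 27 weeks in whole blood. Under HFCSD the platelet medians were -0.05, -0.43, -1.18 and -0.44, with 1, 1, 0 and 0 of 4 above 0, 0 called and 2 at an unadjusted p under 0.05, both at 27 weeks in whole blood. Of all probes 32.3% had an unadjusted p under 0.05 in that comparison. Platelet markers had a median correlation of -0.31 with OASL, and their part in the values of OASL and the interferon lists was not tested.

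T cell markers, 7 of 10 genes, had medians of 0.15, 0.66, 0.22 and 0.26 under HFCD, where 10 of 12, 11 of 11, 6 of 11 and 11 of 12 tested probes were above 0, and limma called 0, with 0, 6, 0 and 0 at an unadjusted p under 0.05. CD2 at 0.98 and CD8B at 0.85 led at 19 weeks, and all 11 correlated positively with OASL, with a median of 0.20. Under HFCD 10.0%, 12.5%, 5.54% and 4.72% of all probes had an unadjusted p under 0.05. Monocyte markers, 4 of 7 genes, had medians of 0.38, -0.48, 0.47 and 0.31, neutrophil markers, 3 of 10 genes, -0.28, -0.34, 0.39 and 0.78, and NK cell markers, 3 of 8 genes, 0.38, 0.55, 0.28 and 0.24. None of the monocyte, neutrophil or NK cell markers was called by limma under HFCD (0 each), and 1 monocyte and 1 neutrophil probe at most had an unadjusted p under 0.05. The 1 plasmacytoid dendritic cell marker of 5 entered no test and none of the listed erythroid genes had a probe named after it, so red cell RNA in whole blood was not read. Lists were matched by symbol, which 3253 of the 43603 probes carried. Under HFCSD the T cell medians were -0.02, 0.75, 0.03 and 0.28, where 4 of 11, 11 of 11, 6 of 10 and 11 of 12 tested probes were above 0, and limma called 0, with 0, 6, 1 and 1 at an unadjusted p under 0.05. Of all probes 1.73%, 11.9%, 32.3% and 11.4% had an unadjusted p under 0.05 under HFCSD. Monocyte, neutrophil and NK cell probes under HFCSD also gave 0 calls. The part of these cells in the values of OASL and the interferon lists was not tested.

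White blood cells were compared with whole blood at 27 weeks within each diet. Limma called 24.4% of all probes higher in white blood cells in control, 25.5% in HFCD and 37.2% in HFCSD arrays, and the marker counts stand beside these shares. Of 12 T cell probes 9 rose in control, 6 in HFCD and 9 in HFCSD arrays, with medians of 0.97, 0.89 and 1.11, and 2 of 3 NK cell probes rose in each, PRF1 in control by 2.25 (adjusted p = 2.55e-05 with limma). Monocyte probes rose at 4 of 9, 2 of 8 and 3 of 8, near those shares in HFCD and HFCSD arrays, led in control by FCGR1A at 2.85 and CD14 at 2.61. Neutrophil and platelet probes gave 0 calls with limma, and 1 platelet probe, in HFCSD arrays, had an unadjusted p under 0.05. Platelet medians were 0.51, 0.43 and 0.77, and all 4 platelet probes were well above background on every array of both sample types at 27 weeks. Of all probes limma called 45.3% in control, 47.5% in HFCD and 58.9% in HFCSD arrays.

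Against that background 0 of the 18 OAS tests were called with limma and 0 had an unadjusted p under 0.05, with changes of -0.63 to 1.93. OAS1 on A_72_P223657 gave 1.56, 1.1 and 0.21 in control, HFCD and HFCSD arrays, OAS2 on A_72_P303179 0.36, 0.32 and 0.69, and OASL -0.36, 0.08 and 0.28. Leaving out 1 array brought OAS1 to 0.82, -0.61 and -0.31, OAS2 to -0.18, -0.13 and 0.38, and OASL to -0.12, -0.38 and -0.22. The change of 1.93 was that of OAS2 on A_72_P108986 in control arrays (95% interval -0.36 to 4.22, adjusted p = 0.160 with limma). Without the control array of whole blood that read 3.84, not well above background, it was 1.09. The groups overlapped in all 18 tests. Over all probes the median change was 0.17, 0.19 and 0.42, and in control arrays 0.30 with scaling to the 75th percentile. Interferon-induced probes rose at 8 of 27, 6 of 29 and 7 of 29. Beside 24.4%, 25.5% and 37.2% of all probes called higher, the list did not stand out. A probe of IRF7 fell by 2.31 in HFCSD arrays (adjusted p = 0.00031 with limma). EIF2AK2 gave -0.05, 0.20 and 0.16, and its groups overlapped.

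Later feeding periods were compared with 10 weeks in whole blood within each diet. None of the 36 OAS tests was called with limma (0 of 36), 3 had an unadjusted p under 0.05, and the changes ran from -1.04 to 1.79. Limma called 12% of all probes at 19 weeks and 20.7% at 27 weeks in control, 7.0% and 5.59% under HFCD, and 7.16% and 10.4% under HFCSD. OAS2 on A_72_P025136 in control gave 0.72 at 19 weeks and 1.06 at 27 weeks (95% interval 0.14 to 1.97, adjusted p = 0.0897 with limma), and on A_72_P303179 0.84 and 1.04 (0.08 to 2.00, adjusted p = 0.111 with limma). Of all probes 35.5% had an unadjusted p under 0.05 in that 27 week comparison. In control limma called 6 of 11 T cell probes at 19 weeks and 5 of 11 at 27 weeks. Mean T cell marker levels were 7.40, 6.61 and 6.71 at 10, 19 and 27 weeks. Interferon signalling probes were called at 4 and 10 of 28, and interferon-induced probes at 2 of 26 and 6 of 24. Monocyte, neutrophil and platelet probes gave 0 calls. The part of these cells in the OAS2 values was not tested.

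The OAS2 values at 27 weeks rested in part on 1 control array, which read 12.25 on A_72_P303179 beside 14.69, 13.52 and 14. Without control replicate 1 instead, the values of 1.06 and 1.04 became 0.71 and 0.68, and those at 19 weeks, 0.72 and 0.84, became 0.43 and 0.45 without control replicate 3. Without the array reading 12.25 A_72_P025136 gave 1.50 (adjusted p = 0.0205 with limma) and A_72_P303179 gave 1.50 (adjusted p = 0.0283 with limma). The remaining OAS2 probe, A_72_P108986, had -1.04 in the same comparison (95% interval -2.32 to 0.25, adjusted p = 0.238 with limma). It read 3.84 on that control array, not well above background, and gave -0.19 without it. Under HFCD A_72_P025136 gave 1.00 at 27 weeks (adjusted p = 0.239 with limma), against 20.5% of all probes at an unadjusted p under 0.05, and under HFCSD 0.78. Without 1 array these were 0.69 and 0.47.

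In 3 of the 36 tests the later arrays did not overlap those of 10 weeks. They were A_72_P025136 of OAS2 and A_72_P223657 of OAS1 under HFCSD at 27 weeks, with 0.78 and 1.79 (1.79 became 0.95 without HFCSD replicate 2 of 10 weeks), and A_72_P293394 of OAS1 under HFCD at 19 weeks, at -0.32. Of all probes 30.3% did not overlap in the former comparison and 16.4% in the latter, and limma called 10.4% and 7.0%. OASL gave -0.13 and 0.15 in control, 0.13 and -0.30 under HFCD, and 0.68 and -0.08 under HFCSD at 19 and 27 weeks, with groups that overlapped. Of these 6 OASL values all but that of 0.68, which became 0.16, turned sign without 1 array. EIF2AK2 gave 0.12 and 0.37 in control, 0.39 and 0.13 under HFCD, and 0.47 and 0.28 under HFCSD, with groups that overlapped. Feeding period and scan day cannot be told apart in these values.

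Whether a diet change differed between sample types or feeding periods was tested as a difference of changes. With limma 0 of the 36 OAS tests were called and 0 had an unadjusted p under 0.05, and the differences ran from -2.56 to 1.93. Of all probes limma called 0.00% for HFCD in white blood cells against whole blood, 0.00545% at 19 against 10 weeks and 0.00% at 27 against 10 weeks, and for HFCSD 1.38%, 0.00% and 0.00%. For OASL under HFCD the differences were 0.45 (95% interval -1.09 to 1.98) between sample types, 0.25 (-1.45 to 1.96) at 19 weeks and -0.45 (-2.22 to 1.33) at 27 weeks against 10 weeks. A difference of 1 unit of OASL between these changes lay inside each interval, so the changes were not shown to be alike or to differ.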

How the data were processed

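The authors measured RNA of whole blood and white blood cells on single-colour arrays. The deposited files hold the processed signal of each spot as an intensity on a linear scale, per the file headers from Feature Extraction 10.5.1.1, with the background subtracted. The 1417 control spots of 45220 were left out, the log2 of each intensity was taken and quantile normalization run across the 45 arrays, as the methods state, spots marked as outliers (1 to 31 an array) were left out, and spots of a probe were averaged.

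Samples were grouped by the labels, and none was left out. A probe was tested if well above background on every usable array of at least 1 group compared. Tests used limma 3.58.1 (R 4.3.3), two-sided, with Benjamini-Hochberg adjustment over all probes tested and a threshold of 0.05, and exact permutation of arrays. Other work used Python 3.11.15 (matplotlib 3.10.9, scipy 1.17.1, pandas 2.3.3, numpy 2.4.6), and the fits were tested on simulated data.

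The members and lists were chosen with earlier results of these data known. Lists were the 2-5A pathway, interferon-induced genes, interferon signalling and markers of platelets, neutrophils, monocytes, T, NK, plasmacytoid dendritic and erythroid cells. Named genes were all members, the 5 genes most correlated with the brightest probe of each member (well above background on at least 36 arrays), genes of the 2-5A list, and the 5 largest changes of other lists in a comparison described. Genes singled out otherwise, including single markers and genes called in whole lists, were chosen after their values were seen. Some genes that these rules select, and the B cell list, are not reported here.

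Alternatives were 75th percentile scaling, normexp background with offset 50, the deposited series table, no filter, a weaker presence flag, blocks of replicate number, scan day or slide, the percentage of bright spots on an array as a covariate, 1 fit of all arrays, the test named in the methods, and leaving out each array. No promoter or protein sequences were at hand, so a planned motif search was not run.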

Additional observations from a re-analysis of the deposited data

Results flagged for a closer look

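Single arrays stood far from the other 3 of their group in 5 of the 62 groups of 4 examined, by a gap to the nearest array that took most of the group's range. Chance flags about 1 in 20 groups. In whole blood of the HFCSD group at 10 weeks replicate 2 was low on 3 member probes. OAS1 on A_72_P223657 read 6.10 beside 9.20 to 9.77 (ratio 0.844), OAS2 on A_72_P108986 read 6.53 beside 7.35 to 7.48 (0.855), and OAS2 on A_72_P303179 read 11.60 beside 12.54 to 12.72 (0.841). In white blood cells of the HFCD group replicate 2 read 2.01 on A_72_P108986 of OAS2 beside 7.97 to 8.76 (0.883) and was not well above background there. In whole blood of the HFCD group at 19 weeks replicate 3 read 12.30 on A_72_P303179 of OAS2 beside 12.98 to 13.12 (0.830). The cause of these readings was not tested.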

How the results depend on the processing

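No count of OAS probes called by limma left 0 under the alternatives, apart from later weeks against week 10. There scaling to the 75th percentile called 1 probe (A_72_P025136 of OAS2 in control at 27 weeks, 1.18, adjusted p = 0.0456), and the cause was not tested. Leaving out 1 array gave 0 to 2 calls there, 2 without control replicate 4 of whole blood at 27 weeks, and 0 to 0 in the other comparisons between groups, and was not run for differences between changes. For diet against control the exact permutation test gave 1 at an unadjusted p under 0.05, by its construction without adjustment. Leaving-out aside, the lowest adjusted p over the alternatives was 0.151 for diet against control, 0.332 for HFCSD against HFCD, 0.0456 for later weeks and 0.495 for differences between changes, and for sample types it was 0.0680, with replicate number as a block. The labels do not say that replicate numbers name pigs. Arrays of equal number had correlations of -0.43 to 0.46 between sample types, -0.37 to 0.60 between weeks and -0.57 to 0.70 between diets. All exceeded 0.1 in 2 of 9 group comparisons between weeks and in 0 of the rest. With 3 or 4 arrays to choose from, the own number was the best match in 4 of 10, 16 of 31 and 13 of 43. Between weeks equal numbers had a median r of 0.40 to 0.49 under HFCD, -0.02 to 0.15 in control and 0.10 to 0.30 under HFCSD. For other numbers it was -0.25 to -0.21, -0.09 to -0.01 and -0.13 to 0.02. Arrays of a diet share pigs, but which numbers match was not settled, and that block gave 0 calls. Of 540 alternative values of the 48 diet changes, 36 had the opposite sign, in 26 changes. For OASL these were 2 of 90, in changes of at most 0.28. Under HFCD the OASL change ran over the settings from 1.05 to 1.35 at 10 weeks, 1.25 to 2.28 at 19 weeks, 0.68 to 0.86 at 27 weeks and 0.92 to 1.41 in white blood cells. With 1 array left out it ran from 0.85 to 1.69, 0.95 to 1.84, 0.58 to 1.1 and 0.83 to 1.59. Scan day as a block could be run at 19 weeks only, and the promoter motif search was not run. Signal over background limits A_72_P428594 of OAS1.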
